A study of Mus musculus with 37 samples.

Results

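The T-lineage identity genes were 9 genes picked by Ensembl identifier from the 60708 human gene identifiers of the deposited count table. They held the transcription factors TCF7 (ENSG00000081059), LEF1 (ENSG00000138795), BCL11B (ENSG00000127152), SATB1 (ENSG00000182568) and ETS1 (ENSG00000134954). The rest were CD3E (ENSG00000198851) and CD3G (ENSG00000160654), CD3 chains of the T cell receptor complex, the co-stimulatory receptor CD28 (ENSG00000178562) and the interleukin-7 receptor alpha chain IL7R (ENSG00000168685). They were chosen as a readout of T cell content and state. A gene with a mean under 10 counts per library was set down as poorly captured.

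The libraries were 37 bulk 3′ mRNA-seq libraries of splenocytes from wild-type FVB mice. In 35 of them the splenocytes had spent 48 h with RAW264.7, a macrophage-like line from mouse, or with medium taken from that line. Before this, RAW264.7 was cultured for 72 h at 21% oxygen (normoxia) or at 1% oxygen (hypoxia), and 1 µg/mL SPP1 was either added or left out. SPP1 is osteopontin, a matricellular ligand of integrins and of CD44. The splenocytes received the RAW264.7 medium (11 libraries), the unwashed RAW264.7 cells (12 libraries) or the RAW264.7 cells after a medium wash (12 libraries), and these 3 modes are named medium, cells and washed. The naive group was 2 libraries of splenocytes that met neither RAW264.7 cells nor their medium. Brefeldin A, a blocker of protein secretion, was added at the end of the cultures before collection. Of the 13 groups, 11 had 3 libraries, and medium normoxia no-SPP1 and naive had 2 each. Medium normoxia no-SPP1 held replicates 2 and 3 and lacked replicate 1. Whether the naive splenocytes were also kept in culture is not given in the sources used here, so exposure and time in culture cannot be told apart in any comparison with naive. In the cells and washed modes the wells also held RAW264.7 cells, and how much of their RNA entered the libraries was not measured here.

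TCF7 and LEF1 are related HMG-box factors that act with β-catenin and keep naive and memory T cells in their resting state, and both fall when T cells are activated into effectors. BCL11B commits thymic progenitors to the T lineage and is kept on in mature T cells, SATB1 organises chromatin in thymocytes, and ETS1 serves T, B and NK cells alike. CD3E and CD3G carry the T cell receptor signal, CD28 gives the second signal for activation, and IL7R receives the survival signal of resting T cells.

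The reads came from mouse cells and had been aligned to a human genome, so each identifier counts those mouse reads that matched the human gene. Of the 9 genes, 4 were measured and 5 were poorly captured. The 4 measured genes were all transcription factors. BCL11B had 8511 counts over the 37 libraries (67 to 758 per library), ETS1 had 7285 (12 to 563), LEF1 had 1819 (9 to 134) and TCF7 had 469 (1 to 46). Each had a count in 37 of 37 libraries, and each passed the filter on low counts also when the naive libraries were left out of the filter.

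The surface receptors and SATB1 were nearly absent from the counts. CD3E and SATB1 had 0 counts among 39892977, which allows a level of up to 0.0752 CPM (a gene's counts scaled to the library total) when the limit is set at 3 counts of the total. CD28 and IL7R had 2 counts each, in a single medium library. CD3G had 27 counts in 17 libraries and at most 3 in any of them, or 0.677 CPM (95% exact Poisson interval 0.446 to 0.985, counting error only). Of those 27 counts, 16 lay in the medium libraries, 7 in the cells libraries, 3 in a single washed library and 1 in the naive libraries. The CD3 chains of the T cell receptor complex were thus at or near 0 also in naive splenocytes, and the T lineage label could not be checked on them. For these 5 genes no comparison between groups was made, and a low count says nothing of their level in the cells.

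**Figure D1:**
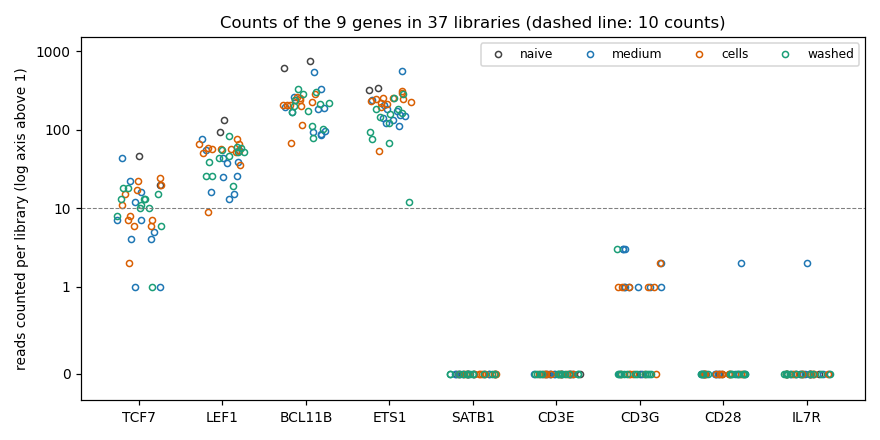
Reads counted per library (vertical axis, linear from 0 to 1 and logarithmic above) for the 9 genes, with 1 point for each of 37 libraries, spread sideways for visibility and coloured by mode. TCF7, LEF1, BCL11B and ETS1 had a count in every library, whereas SATB1 and CD3E had 0 counts and CD3G had at most 3.

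The libraries held 631574 (naive replicate 2) to 1337314 counts (median 1063211) on 7102 to 10852 identifiers. At these depths 3 counts correspond to 2.01 to 4.97 CPM, so TCF7, with as little as 1 count in a library, carried wide counting error. In none of 35 replicate pairs did the counts agree within sampling noise (chi-square per degree of freedom 3.19 to 54.9). Several libraries stood apart. The identifier ENSG00000080824.19 was at 28030 to 53820 CPM in 4 co-culture libraries (replicate 2 of cells hypoxia no-SPP1, replicate 1 of washed hypoxia SPP1, and replicates 1 and 2 of washed normoxia SPP1) and at 1407 to 12170 CPM in the other 33. Within medium, hypoxia no-SPP1 replicate 1 was the highest library for TCF7, LEF1, BCL11B and ETS1. Values without them are given beside several results. Levels below are CPM after TMM scaling, and comparisons are log2 fold changes from edgeR's quasi-likelihood F test with Benjamini-Hochberg adjustment over the 5193 identifiers tested, called where the adjusted p was under 0.05. Because the libraries are bulk RNA, fewer T cells and less RNA per T cell cannot be told apart.

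The first question was whether the T-lineage factors differed between splenocytes exposed to RAW264.7 cells or medium and naive splenocytes. All 4 measured factors were lower after exposure in the medium and washed modes, and TCF7, LEF1 and BCL11B were also lower in the cells mode. Of all identifiers tested, 15.3% were called lower in medium, 13.4% in cells and 17.1% in washed. The median log2 fold change of the 4 genes was -2.16 in medium, -1.65 in cells and -1.50 in washed, whereas that of all identifiers was 0.115, 0.0415 and 0.0409. The 3 comparisons share the same 2 naive libraries and are not independent of each other.

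BCL11B showed the lowest adjusted p of the 4 genes in each mode. It stood at 739.8 and 797.1 CPM in the naive libraries (768.5 ± 40.5, SD, n = 2). In medium the lowest, median and highest libraries were at 76.4, 147.0 and 414.7 CPM, in cells at 78.5, 187.8 and 249.5 CPM, and in washed at 115.8, 195.4 and 304.1 CPM. Every exposed library thus lay below both naive libraries. The level fell by 2.32 on the log2 scale in medium (SE 0.292, adjusted p = 2.58e-07, edgeR), which is 4.99-fold lower. It fell by 2.08 in cells (SE 0.289, adjusted p = 1.24e-06, edgeR) and fell by 1.91 in washed (SE 0.292, adjusted p = 4.58e-06, edgeR). These calls held in all alternatives run, including the fits that left out either naive library, where the adjusted p reached at most 0.00135.

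LEF1 was the second factor whose exposed libraries all lay below naive. The naive libraries were at 130.8 and 121.1 CPM (126.0 ± 6.83, SD, n = 2). The lowest, median and highest libraries were at 12.6, 26.5 and 58.6 CPM in medium, at 10.5, 47.0 and 67.3 CPM in cells, and at 29.0, 44.8 and 79.1 CPM in washed. Medium was the lowest of the modes by its median, and no exposed library reached the lower naive value. LEF1 fell by 2.16 on the log2 scale in medium (SE 0.319, adjusted p = 3.37e-06, edgeR), by 1.46 in cells (SE 0.32, adjusted p = 0.000701, edgeR) and by 1.39 in washed (SE 0.322, adjusted p = 0.00098, edgeR). These calls, too, were kept in every alternative run, with the weakest at an adjusted p of 0.0353 in washed without naive replicate 1.

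The mouse promoter of Lef1 is shown as context for the factors that moved with it, since TCF/LEF factors bind motifs with the core CTTTG. RefSeq's 250 bases before the listed gene start, on GRCm38.p6 at chr3:131110047-131110296 (+ strand), read as follows, with the core in capitals.
Lef1: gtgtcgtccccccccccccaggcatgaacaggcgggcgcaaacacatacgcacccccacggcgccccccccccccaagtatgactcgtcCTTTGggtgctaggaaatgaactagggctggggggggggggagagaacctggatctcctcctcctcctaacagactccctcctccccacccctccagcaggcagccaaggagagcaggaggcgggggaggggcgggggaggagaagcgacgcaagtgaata
Searched on both strands, the core CTTTG had 1 match, the ETS core GGAA had 1 elsewhere in the window, and the RUNX core TGTGGT had 0. Of 32851 promoters in the same table, 48.6% held the first, 93.4% the second and 14% the third. The matches describe the letters of this window and were not tied to the counts.

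TCF7, the partner of LEF1, moved in the same direction but rested on few counts. It was at 44.9 and 26.1 CPM in the naive libraries, from 46 and 20 counts. The lowest, median and highest libraries were at 0.906, 6.09 and 33.2 CPM in medium, at 1.97, 8.45 and 18.03 CPM in cells, and at 1.11, 11.5 and 29.8 CPM in washed. The cells libraries did not overlap with naive, whereas 1 library each of medium (hypoxia no-SPP1 replicate 1) and washed (normoxia SPP1 replicate 1) lay above the lower naive library. TCF7 fell by 2.16 on the log2 scale in medium (SE 0.57, adjusted p = 0.00402, edgeR), fell by 1.84 in cells (adjusted p = 0.0127) and fell by 1.61 in washed (adjusted p = 0.0263). All 3 calls were lost without naive replicate 1, with adjusted p of 0.14, 0.257 and 0.355 in edgeR, and the washed call was also lost without naive replicate 2 (0.0744).

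ETS1, which is not limited to T cells, was lower than naive in medium and washed, and the cells comparison did not pass the test. The naive libraries were at 308.4 and 444.2 CPM. The lowest, median and highest libraries were at 106.0, 135.6 and 434.0 CPM in medium, at 62.1, 214.0 and 256.0 CPM in cells, and at 19.3, 149.1 and 244.9 CPM in washed. Cells and washed did not overlap with naive, and in medium only hypoxia no-SPP1 replicate 1 reached the naive range. The log2 fold change of ETS1 was -1.302 in medium (SE 0.397, adjusted p = 0.0112, edgeR) and -1.39 in washed (SE 0.39, adjusted p = 0.00545, edgeR). In cells the log2 fold change was -0.91 (95% interval -1.73 to -0.10, adjusted p = 0.0855, edgeR). Without naive replicate 2 the medium and washed calls were lost (adjusted p = 0.22 and 0.188, edgeR), and without the 4 co-culture libraries named above the cells comparison was called (log2 fold change -0.76, adjusted p = 0.0331, edgeR). It was also called without washed hypoxia SPP1 replicate 1 alone (adjusted p = 0.021, edgeR) and with RLE or total-count scaling.

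Counted over modes, the libraries of LEF1 and BCL11B did not overlap with naive in 3 of 3 modes, those of ETS1 in 2 and those of TCF7 in 1. Of all identifiers tested, 14.5% lay with every medium library below both naive libraries, 13.3% did so for cells and 13.7% for washed.

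**Figure D2:**
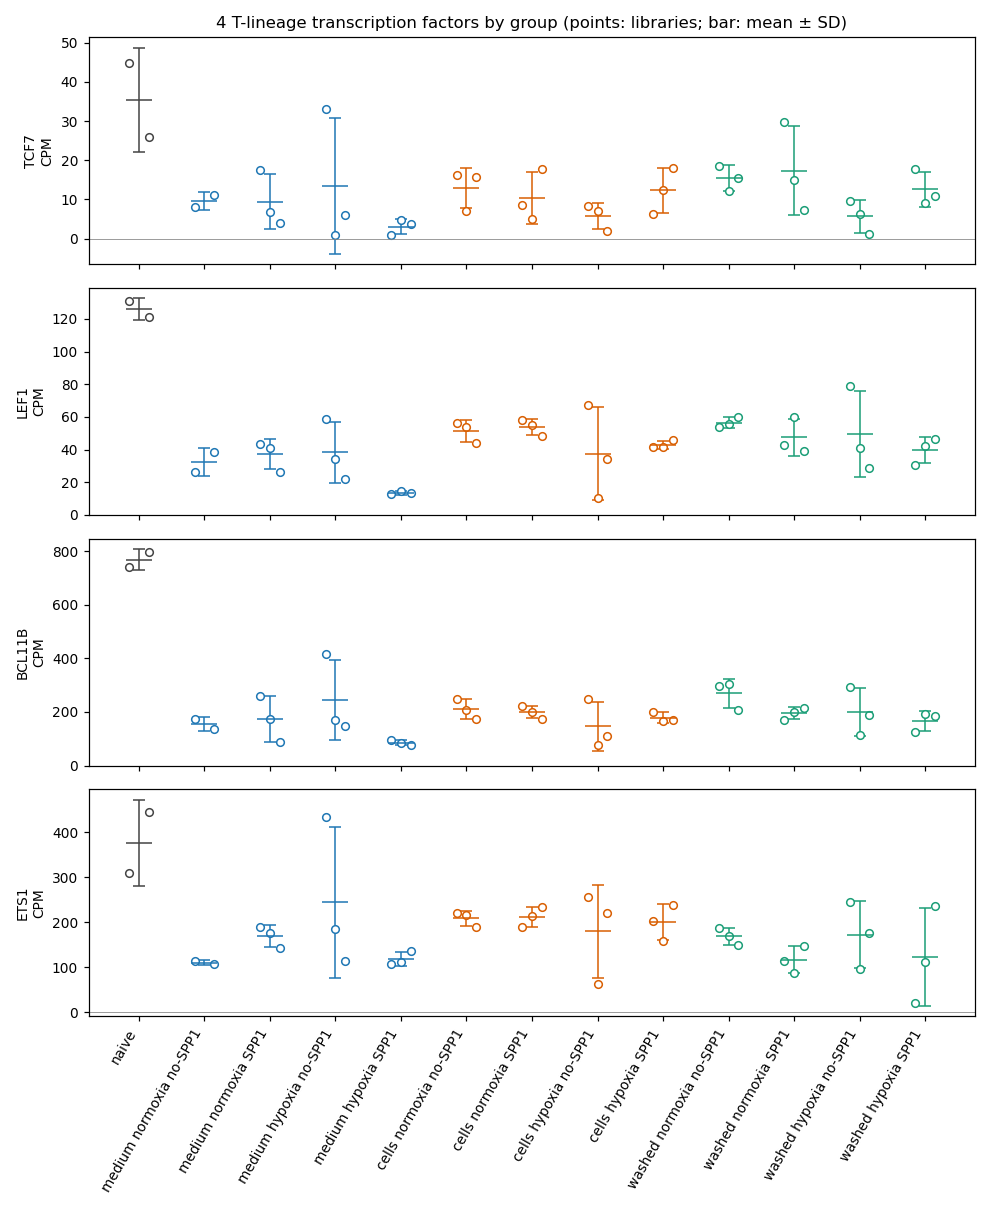
Level of TCF7, LEF1, BCL11B and ETS1 in CPM (vertical axes, linear) in the 13 groups, with 1 open point per library and the mean ± SD as a bar with whiskers. Both naive libraries of LEF1 and BCL11B lay above all 35 exposed libraries, and medium hypoxia SPP1 was the lowest group for TCF7, LEF1 and BCL11B.

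The second question was whether the kind of contact mattered. LEF1 was higher after contact with RAW264.7 cells than after their medium alone, and it was the only one of the 4 genes called between modes. Against the medium libraries above (30.1 ± 14.6 CPM, SD, n = 11), LEF1 averaged 46.4 ± 14.4 CPM in cells (SD, n = 12) and 48.3 ± 14.2 CPM in washed (SD, n = 12). The modes overlapped: the lowest library of all was cells hypoxia no-SPP1 replicate 2 at 10.5 CPM, and the highest medium library reached 58.6 CPM. The log2 fold change was 0.70 for cells against medium (SE 0.207, adjusted p = 0.0053, edgeR) and 0.77 for washed against medium (SE 0.208, adjusted p = 0.0018, edgeR). Of all identifiers, 23.4% were called higher in cells than in medium and 28.6% higher in washed than in medium, so 1 gene of 4 called was close to the background. When libraries were scaled by total counts only, the washed call was lost (log2 fold change 0.49, adjusted p = 0.0503, edgeR), with the median of all identifiers at -0.315. Relative to that median LEF1 was 0.809 higher, against 0.807 with TMM scaling.

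BCL11B was at a log2 fold change of 0.41 for washed against medium (95% interval 0.03 to 0.80, adjusted p = 0.0587, edgeR), just outside the call. Leaving out medium hypoxia no-SPP1 replicate 1, its highest exposed library, brought the value to 0.552 (adjusted p = 0.00802, edgeR). TCF7 was at 0.55 (95% interval -0.24 to 1.33, adjusted p = 0.228, edgeR), and without the same library at 1.003 (adjusted p = 0.0174, edgeR). For cells against medium the values were 0.24 for BCL11B, 0.32 for TCF7 and 0.39 for ETS1 on the log2 scale, with adjusted p from 0.184 to 0.523 (edgeR). The ETS1 difference was called without the 4 co-culture libraries (0.471, adjusted p = 0.02, edgeR) and without medium hypoxia no-SPP1 replicate 1 (0.554, adjusted p = 0.0473, edgeR). Between washed and cells 0 of 4 genes were called, against 7.24% of all identifiers, and DESeq2 likewise called 0. ETS1 alone had an unadjusted p under 0.05 there (log2 fold change -0.48, 95% interval -0.949 to -0.0038, adjusted p = 0.206, edgeR).

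**Figure D3:**
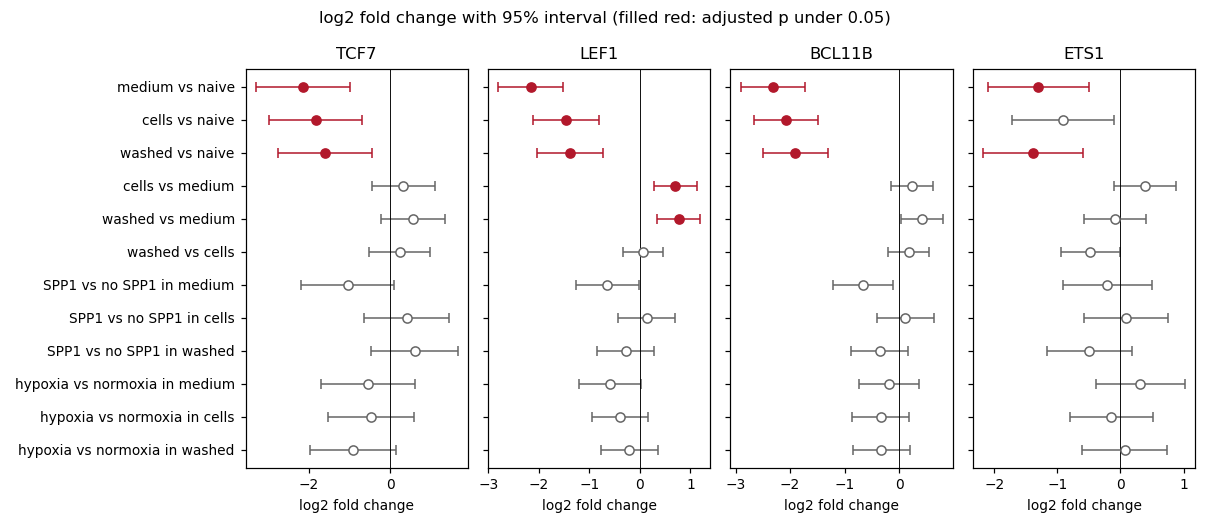
Log2 fold change (horizontal axes) with its 95% interval for TCF7, LEF1, BCL11B and ETS1 in 12 comparisons, filled red where the adjusted p was under 0.05 in edgeR's quasi-likelihood test. Called values were those against naive, except ETS1 in cells, and LEF1 in cells and washed against medium, whereas 0 of 4 genes were called for SPP1 or hypoxia in any mode.

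SPP1 was the factor that the study added to the RAW264.7 cultures. None of the 4 genes was called for SPP1 in any mode by edgeR or DESeq2. Of all identifiers, edgeR called 0.25% in medium, 0% in cells and 0.0193% in washed. In cells, where 0 identifiers were called, 87 of 5193 had an unadjusted p under 0.05, and DESeq2 also called 0. An unadjusted p under 0.05 was seen for LEF1 and BCL11B in medium and for 0 of the 4 genes in cells and washed.

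BCL11B in medium had the lowest p of these. Its 6 SPP1 libraries had a lowest value of 76.4 and a highest of 259.9 CPM, and the 5 no-SPP1 libraries ran from 136.0 to 414.7 CPM, so that the arms overlapped. The log2 fold change for SPP1 was -0.67 (95% interval -1.22 to -0.12, adjusted p = 0.457, edgeR). For the others in medium it was -0.64 for LEF1 (-1.26 to -0.02), -1.05 for TCF7 (-2.19 to 0.10) and -0.21 for ETS1 (-0.92 to 0.49). A pair of no-SPP1 medium libraries, replicate 1 in hypoxia and replicate 3 in normoxia, was also left out. They were picked from earlier results on other genes, and in the second the 4 genes were not marked as far from the rest. Leaving it out leaves medium normoxia no-SPP1 with 1 library, which is assumed to vary like the other groups. Without both, the values became -0.419, -0.243, 0.05 and 0.139 for BCL11B, LEF1, TCF7 and ETS1, with the sign turned for the last 2. In the co-culture modes the intervals for SPP1 ran from -0.41 to 0.63 for BCL11B in cells and from -0.88 to 0.16 in washed, and from -0.42 to 0.69 and -0.85 to 0.28 for LEF1. The intervals were wider for TCF7 (-0.66 to 1.45 in cells, -0.47 to 1.65 in washed) and ETS1 (-0.57 to 0.75 and -1.17 to 0.18). Changes within these intervals were not excluded at this depth and replication. TCF7 in washed was at 0.59 for SPP1, and at -0.116 without the 4 co-culture libraries. ETS1 there was at -0.497, and at -0.059 without them, BCL11B at -0.36 and -0.185, and LEF1 at -0.28 and -0.327. All washed libraries among those 4 were from the SPP1 arm, and washed normoxia SPP1 is left with 1 library.

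Hypoxia of the RAW264.7 cells was the other factor. Of the 4 genes, 0 were called in any mode by edgeR or DESeq2, and 0 had an unadjusted p under 0.05 with all libraries, whereas 0.077% of all identifiers were called in medium, 3.62% in cells and 0.0385% in washed. With all libraries, the value furthest from 0 was that of TCF7 in washed, at -0.92 on the log2 scale (95% interval -1.98 to 0.14, adjusted p = 0.684, edgeR). LEF1 had log2 fold changes of -0.59 in medium (95% interval -1.21 to 0.02), -0.39 in cells (-0.95 to 0.17) and -0.21 in washed (-0.78 to 0.35). BCL11B was at -0.19, -0.34 and -0.33, and ETS1 at 0.31, -0.15 and 0.06. Without the 2 medium libraries, TCF7 in medium was at -1.352, further from 0 than any of these (unadjusted p = 0.0356, adjusted p = 0.933, edgeR), and ETS1 was at -0.039 (adjusted p = 1, edgeR).

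Across all 13 groups, LEF1 (adjusted p = 0.000337) and BCL11B (adjusted p = 1.25e-05) were called for any difference by edgeR. TCF7 (adjusted p = 0.054, edgeR) and ETS1 (adjusted p = 0.0949, edgeR) were not called. Of all identifiers, 53.6% were called. Among the 12 exposed groups only LEF1 was called (adjusted p = 0.0246, edgeR), against 43.5% of all identifiers, and BCL11B was at 0.0567. The LEF1 call was lost when any 1 of the 3 medium hypoxia SPP1 libraries was left out.

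That group, medium hypoxia SPP1, was the lowest of 13 for LEF1, BCL11B and TCF7. Its libraries were at 12.6, 14.8 and 13.5 CPM for LEF1, at 93.8, 85.0 and 76.4 CPM for BCL11B and at 0.967, 4.62 and 3.59 CPM for TCF7. For ETS1 they were at 107.4, 110.9 and 135.6 CPM, and there the lowest group was medium normoxia no-SPP1 at 113.7 and 106.0 CPM. The interaction of SPP1 with oxygen in medium was -1.70 on the log2 scale for BCL11B (SE 0.557, unadjusted p = 0.00422 and adjusted p = 0.811, edgeR) and -1.69 for LEF1 (SE 0.618, adjusted p = 1, edgeR), so that neither passed the adjustment over all identifiers. Without the 2 medium libraries the same values were -0.96 and -1.595. Without the 4 co-culture libraries they were -1.777 and -1.77. In all, 9 such contrasts were tested, that is SPP1 with oxygen within each mode and each factor between modes, and 0 of 4 genes were called in any of them, with the lowest adjusted p at 0.446 (TCF7, SPP1 in washed against medium, edgeR). An unadjusted p under 0.05 was reached by LEF1, BCL11B and ETS1 for SPP1 with oxygen in medium, by BCL11B for SPP1 in cells against medium and by TCF7 for SPP1 in washed against medium. Without the 2 medium libraries only LEF1 remained under 0.05 in edgeR (unadjusted p = 0.0346) among these 5. The interaction in medium had an unadjusted p of 0.125 for BCL11B and 0.234 for ETS1 (log2 value -0.971 in place of -1.68). For SPP1 against medium, the unadjusted p in edgeR was 0.161 for BCL11B in cells (0.541 in place of 0.78) and 0.528 for TCF7 in washed (0.497 in place of 1.64).

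In the order of the 13 group means, naive came first for all 4 genes. The step from naive to the next group exceeded the larger of both SDs for LEF1 (126.0 to 56.6 CPM), BCL11B (768.5 to 270.3 CPM) and TCF7 (35.5 to 17.4 CPM), but not for ETS1 (376.3 to 244.5 CPM). Below naive, only the step of LEF1 from medium normoxia no-SPP1 (32.2 ± 8.69 CPM, SD, n = 2) to medium hypoxia SPP1 (13.6 ± 1.11 CPM, SD, n = 3) did so. All other steps between neighbours, 44 of 48, stayed within the larger SD. The groups were sorted by mean, which keeps neighbours close, so these steps do not test whether groups differ. Washed normoxia no-SPP1 was the highest exposed group for LEF1 and BCL11B, washed normoxia SPP1 for TCF7, and medium hypoxia no-SPP1, with the library at 434.0 CPM, for ETS1.

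The strength of correlation differed between pairs of the 4 genes. Pearson's r of log2 CPM between LEF1 and BCL11B was 0.878 over the 37 libraries and 0.838 over the 35 exposed ones, whereas TCF7 and ETS1 had 0.193 and 0.0538. The other pairs lay between 0.587 and 0.637 over all libraries. These values are a description, since the points share library, depth and group. TCF7 had 1 to 46 counts per library, and counting error alone can lower its r. In the 4 co-culture libraries with high ENSG00000080824.19, TCF7 had a higher median than in the other 20 (16.4 against 9.41 CPM). ETS1 had a lower one there (75.0 against 196.4 CPM), and r without these 4 was not computed. The log2 ratio of BCL11B to ETS1 within a library, which shows unequal change and not which gene changed, was 1.05 ± 0.296 in naive (SD, n = 2), -0.046 ± 0.464 in medium (n = 11), -0.115 ± 0.36 in cells (n = 12) and 0.672 ± 0.75 in washed (n = 12). All medium libraries (highest 0.607) and all cells libraries (highest 0.338) lay below the lower naive value of 0.844. In washed the ratio ran from -0.354 to 2.70, and the highest value was that of hypoxia SPP1 replicate 1.

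The lowest ETS1 values lay in libraries with high ENSG00000080824.19. The 3 lowest of 37 libraries were washed hypoxia SPP1 replicate 1 (19.3 CPM, from 12 counts), cells hypoxia no-SPP1 replicate 2 (62.1 CPM) and washed normoxia SPP1 replicate 2 (87.9 CPM), all among the 4 co-culture libraries with that identifier at 28030 CPM or more. The fourth, washed normoxia SPP1 replicate 1, was at 112.6 CPM. The other 20 co-culture libraries lay between 96.0 and 256.0 CPM with a median of 196.4 CPM, against 75.0 CPM in the 4. BCL11B had medians of 148.1 CPM in the 4 and 201.1 CPM in the 20, with overlapping ranges, LEF1 had 36.8 and 47.3 CPM, and TCF7 had 16.4 and 9.41 CPM. The identifier has no name in the tables used here, and its part in the ETS1 values was not tested. Without the 4 libraries ETS1 was at -1.13 on the log2 scale for washed against naive (adjusted p = 0.00214, edgeR).

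**Figure D4:**
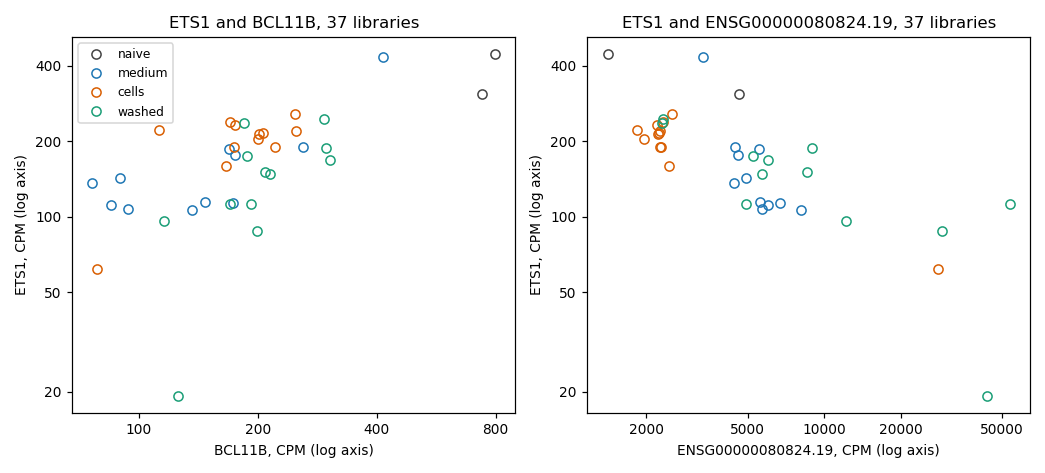
ETS1 level (vertical axes, CPM, log scale) against BCL11B (left, CPM, log scale) and against ENSG00000080824.19 (right, CPM, log scale), 1 point per library coloured by mode. On the right, the 4 libraries at 28030 CPM or more hold the 3 lowest ETS1 values, 19.3, 62.1 and 87.9 CPM.

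Among 2852 identifiers with a mean log2 CPM of at least 4, those with a pattern most like the mean of the 4 standardised genes over the 37 libraries were ENSG00000170091.11 (Pearson's r = 0.897) and ENSG00000197329.12 (r = 0.818). ENSG00000170091.11 was at 238.2 ± 5.37 CPM in naive (SD, n = 2), 60.5 ± 30.9 in medium (n = 11), 71.0 ± 25.9 in cells (n = 12) and 73.5 ± 24.5 in washed (n = 12). ENSG00000197329.12 was at 1361 ± 239.5, 315.7 ± 97.0, 465.1 ± 115.8 and 546.3 ± 60.2 CPM in the same order. They were picked for this likeness, and it is a description.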

How the data were processed

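The authors deposited raw counts per human Ensembl gene identifier. Per the series text, reads were trimmed with bbduk, aligned to GRCh38 with STAR 2.7.10b and counted with featureCounts of Rsubread 2.0.3. The handling of multiply aligned reads and whether the unique molecular identifiers of the kit entered the counting are not given in the sources used here, so a count may include PCR copies and intervals cover counting error only. A mouse transcript may match a related human gene.

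Counts were analysed with R 4.3.3 and edgeR 4.0.16. filterByExpr (minimum count 10) kept 5193 of 22657 identifiers with a count. After TMM scaling, all 37 libraries entered a single quasi-likelihood model with 13 group means and no replicate term. SPP1 and oxygen effects were averaged over the other factor. Log2 CPM used a prior count of 2. The calculations were tested on simulated data. Alternatives were RLE scaling, total counts only, every identifier with a count, DESeq2 1.42.0, a replicate block, only the libraries compared, each library left out in turn, and 2 sets of libraries left out (a pair in medium and 4 in co-culture). The methods state that the experiments were repeated independently, but nothing ties the libraries to separate mice or cultures, so p-values measure the spread between these samples, which may be technical.

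All 9 genes were named, with full statistics where called, and the 2 most similar identifiers. The genes, lists and libraries left out were chosen with earlier results of these data known. Lists of other T cell, B cell, myeloid, NK and erythroid markers were not used here, because no table given pairs human identifiers with names.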

Additional observations from a re-analysis of the deposited data

Results flagged for a closer look

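Within the SPP1 and oxygen arms of each mode, 48 sets of 5 or 6 libraries were tested for a library far from the rest by Dixon's criterion, and 8 were marked. Chance marks about 1 in 20 sets, and sets that share a library are not independent. Medium hypoxia no-SPP1 replicate 1 accounted for 5 of the 8. It was at 33.15 CPM for TCF7 (others of the medium hypoxia arm 0.906 to 6.09), at 414.7 CPM for BCL11B in both the no-SPP1 arm (others 136.0 to 173.2) and the hypoxia arm (76.4 to 169.4), and at 434.0 CPM for ETS1 in the same arms (106.0 to 185.7 and 107.4 to 185.7).

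Medium normoxia SPP1 replicate 1 was at 17.43 CPM for TCF7 (others of the medium SPP1 arm 0.967 to 6.68). Washed hypoxia no-SPP1 replicate 1 was at 79.05 CPM for LEF1 (others of the washed hypoxia arm 29.0 to 46.4). Cells hypoxia no-SPP1 replicate 2 was at 62.06 CPM for ETS1 (others of the cells no-SPP1 arm 189.4 to 256.0), and this library also had ENSG00000080824.19 at 28030 CPM. The causes were not tested.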

How the results depend on the processing

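The calls of BCL11B and LEF1 against naive and of LEF1 for cells against medium kept their direction and stayed under the threshold in every alternative run. No called fold change reversed. Of the called pairwise fold changes, 7 losses were seen: 6 came from leaving out a naive library, after which the lone naive library is assumed to vary like the other groups, and 1 from scaling by total counts. The LEF1 call among the 12 exposed groups was also lost without any of the 3 medium hypoxia SPP1 libraries and with total counts only. The causes were not tested.

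Counts of the 4 genes called moved as follows when 1 library was left out: 3 to 4 for medium against naive, 2 to 3 for cells against naive, 2 to 4 for washed against naive (2 without naive replicate 2), 1 to 2 for cells against medium, 1 to 3 for washed against medium, 0 to 1 for washed against cells (ETS1, without washed hypoxia SPP1 replicate 3, adjusted p = 0.0386, edgeR), 2 to 4 among the 13 groups and 0 to 2 among the 12 exposed groups. Cells against medium had 2 called without the 4 co-culture libraries. Washed against medium had 0 with total counts only, 2 with the replicate block, 3 without the 2 medium libraries and 2 without the 4 co-culture libraries. Among the 13 groups, 4 were called with every identifier and with DESeq2. Among the 12 exposed groups, 0 were called with total counts only, 3 with every identifier, and 2 with the replicate block, with DESeq2 and without the 4 co-culture libraries. For SPP1 and for hypoxia within a mode the count was 0 in every alternative run. ETS1 for cells against naive was called with RLE scaling (adjusted p = 0.0428, edgeR) and total counts only (0.0399). It was also called without washed hypoxia SPP1 replicate 1 (0.021), a library outside that comparison. Without the 4 co-culture libraries its log2 fold change was -0.76. The ranges above cover only left-out libraries of the groups compared.

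Across identifiers, same-numbered libraries did not deviate together (median r 0.00441 over 187 pairs, 35 of them over 0.1), so the numbers were not taken as pairs. Pairs with different numbers had a median r of 0.000666 (374 pairs, 62 over 0.1). For BCL11B, however, replicate 1 was the highest library in every cells group and in every medium group that had it. It was also the highest in washed hypoxia no-SPP1, but not in the other washed groups. A shift by replicate number was not tested for single genes. With the replicate block, BCL11B for washed against medium was called (log2 fold change 0.425, adjusted p = 0.0295, edgeR). Of the measured genes, depth limits TCF7 most, at a mean of 12.7 counts per library. CD3E, CD3G, CD28, IL7R and SATB1 were poorly captured and are left without a comparison. Whether depth or the alignment of mouse reads to a human genome kept their counts low was not tested.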
